A study of Mus musculus with 24 samples.

Results

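The genes described here are Arrdc4 (ENSMUSG00000042659), Txnip (ENSMUSG00000038393), Arrdc3 (ENSMUSG00000074794), Arrdc1 (ENSMUSG00000026972), Mlx (ENSMUSG00000017801) and Mlxip (ENSMUSG00000038342), 6 of 12091 genes in the table. They were chosen by an earlier result of these data, in which Arrdc4 headed the list of genes that differ between antibody groups in MMTV-PyMT tumors, and the other 5 are its relatives and the transcription factors that control it. The antibody comparison in MMTV-PyMT is for that reason described without a test of these 6 genes.

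The study blocked the secreted growth factor pleiotrophin (PTN) in mouse mammary cancer, in 24 samples forming 8 groups of 3 and 4 experiments. Tumors of 4T1 carcinoma cells grown in the mammary fat pad of female BALB/c mice, and tumors of FVB/N MMTV-PyMT mice (polyoma middle T antigen driven in mammary epithelium by a viral promoter) treated from 8 to 12 weeks of age, came from mice given the anti-PTN antibody 3B10 or the mouse IgG C44. Each antibody was given at 15 mg/kg. Cultured E0771 cells, a C57BL/6 mammary adenocarcinoma line, and E0771-LG cells, derived from a lung lesion of E0771, carried a Ptn shRNA or a pLKO.1 control shRNA against EGFP, and both arms were infected and selected with puromycin. The paper counts the 3 samples of a group as biological replicates and names 1 shRNA construct against Ptn; whether replicate cultures came from separately selected cells is not given in the sources used here.

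Txnip and Arrdc4 encode alpha-arrestins that restrain glucose uptake, and Txnip also binds thioredoxin. Their transcription is switched on when glucose phosphates accumulate, through MondoA (encoded by Mlxip) paired with Mlx on carbohydrate response elements. Arrdc3 is an adaptor that sends membrane proteins such as integrin beta-4 to degradation, and Arrdc1 drives budding of microvesicles from the plasma membrane with Tsg101.

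The start regions of Txnip and Arrdc4 were searched for the binding sequences of this pathway, and both are shown because the pair of genes is the one held to share MondoA and Mlx. Each run is 300 bases of the mouse reference (RefSeq, build GRCm38.p6), 250 before the transcription start and 50 after it, read on the strand of the gene: chr3:96557707-96558006 (plus strand) for Txnip and chr7:68749189-68749488 (minus strand) for Arrdc4. Capitals mark matches to CACGNG, an E-box-like core where N is any base, on either strand.
Txnip: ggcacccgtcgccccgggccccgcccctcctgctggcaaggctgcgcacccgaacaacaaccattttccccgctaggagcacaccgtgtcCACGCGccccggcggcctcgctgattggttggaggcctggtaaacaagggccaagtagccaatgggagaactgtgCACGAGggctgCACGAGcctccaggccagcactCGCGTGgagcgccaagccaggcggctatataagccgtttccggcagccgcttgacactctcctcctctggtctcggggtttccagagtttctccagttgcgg
Arrdc4: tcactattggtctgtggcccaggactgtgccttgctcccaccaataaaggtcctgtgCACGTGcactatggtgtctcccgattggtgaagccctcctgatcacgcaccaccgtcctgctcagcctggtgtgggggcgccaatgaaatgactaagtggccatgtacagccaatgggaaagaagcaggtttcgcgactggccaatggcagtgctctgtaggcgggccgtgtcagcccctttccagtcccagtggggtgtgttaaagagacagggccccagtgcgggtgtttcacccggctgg
Txnip has 4 matches, starting 160, 85, 74 and 52 bases before the start, and CACGNG is present in 27.5% of the 32851 start windows of the reference (1 gene can have several), with 3 or more matches in 1.72%. The pair at 85 and 74 bases is CACGAG, 5 bases, CACGAG; this spaced repeat of CACGNG was looked for after the sequence had been read, and 16 windows have it (0.0487%). Arrdc4 has 1 match, the palindrome CACGTG, 193 bases before the start; CACGTG is present in 7.15% of windows. CCAAT, also added after reading the sequences, occurs 6 times in the Arrdc4 window and 2 times in that of Txnip, counting both strands; 37.4% of windows have it and 0.271% have 5 or more. Mlx has 1 CACGTG, 40 bases before its start, Arrdc1 has 2 CACGNG matches at 158 and 118 bases, and the windows of Arrdc3 and Mlxip have 0. A spaced pattern for the carbohydrate response element was also searched, CANGNG, 5 bases, CNCNTG, with half-sites looser than CACGNG that face opposite directions. This pattern is present in 0.557% of windows and in 0 of the 8 windows of these 6 genes. The pair of Txnip at 85 and 74 bases faces the same direction on both sides, so it cannot match this pattern. The search therefore does not decide whether Txnip has a carbohydrate response element of another layout.

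**Figure D1:**
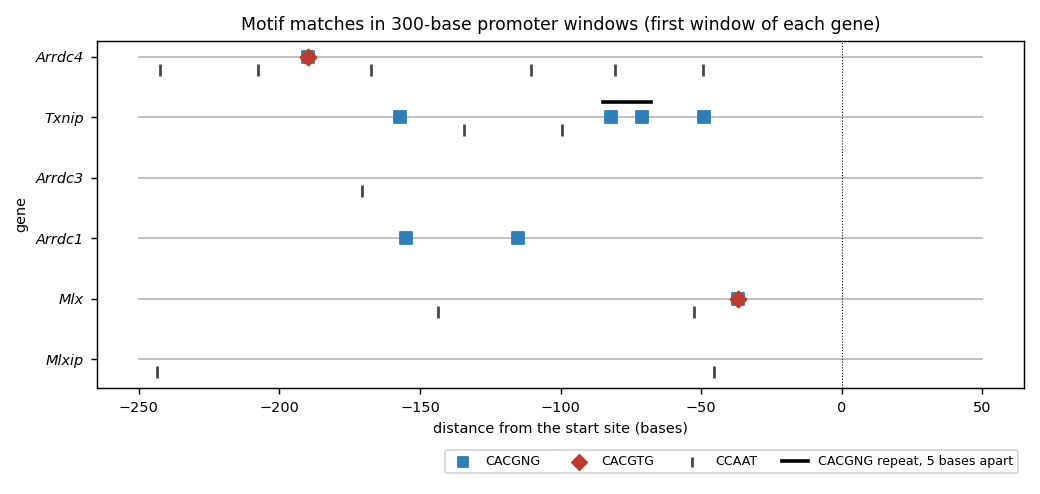
Positions of CACGNG (with its palindrome and its spaced repeat) and of CCAAT in the start windows of the 6 genes; the horizontal axis is the distance in bases from the transcription start. Txnip has 4 CACGNG matches and Arrdc4 has 1.

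In MMTV-PyMT tumors Arrdc4 was higher in every 3B10 tumor than in every C44 tumor. The gene lies at chr7:68736995-68749241 on the minus strand. Its log2 values were 6.15, 6.20 and 6.19 in C44 tumors and 7.03, 6.91 and 7.03 in 3B10 tumors, a difference of 0.81 (standard error 0.12), or 1.75-fold. The standard deviation within groups was 0.03 for C44 and 0.07 for 3B10. Choosing a gene by its smallest p favours a small spread. The reads behind these values were 1364, 1419 and 1370 in C44 and 2136, 2216 and 2131 in 3B10, while the C44 libraries were the deeper ones (median 19.2 against 16.3 M reads on genes); whether depth bears on the gene was not tested. Because Arrdc4 was selected on this very comparison, as the gene with the smallest unadjusted p of 11361, no p is given for it; by size of difference it stood at place 255. The next 5 places by p belong to Magea9 (2.92), Cd44 (-0.58), Tmprss4 (1.28), Plppr4 (-1.82) and Rab7b (0.69). After adjustment limma called 0 of the 11361 genes in this experiment (0%), and 307 had an unadjusted p below 0.05.

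The other genes in MMTV-PyMT are given as description. That they rank behind Arrdc4 follows from how Arrdc4 was chosen. Txnip was 8.24, 8.32 and 7.99 in C44 tumors and 9.13, 8.20 and 8.59 in 3B10 tumors, a difference of 0.46 (1.37-fold) with 3B10 tumor 2 inside the C44 range, and it stood at place 683. Arrdc3 ran from 8.30, 8.80 and 7.98 to 8.51, 8.54 and 8.01 (-0.01, place 11052), and Arrdc1 from 6.77, 6.86 and 6.43 to 6.97, 6.92 and 6.19 (0.01, place 10916). Mlx was 5.71, 5.29 and 6.00, then 5.53, 5.44 and 5.58 (-0.15, place 4714); Mlxip was 7.19, 7.42 and 7.32, then 7.58, 7.55 and 6.76 (-0.01, place 10886). Mlx and Mlxip, the controllers of Arrdc4, overlapped between antibodies. The 3B10 tumor with the highest Txnip, tumor 1, shared the highest Arrdc4 with tumor 3.

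**Figure D2:**
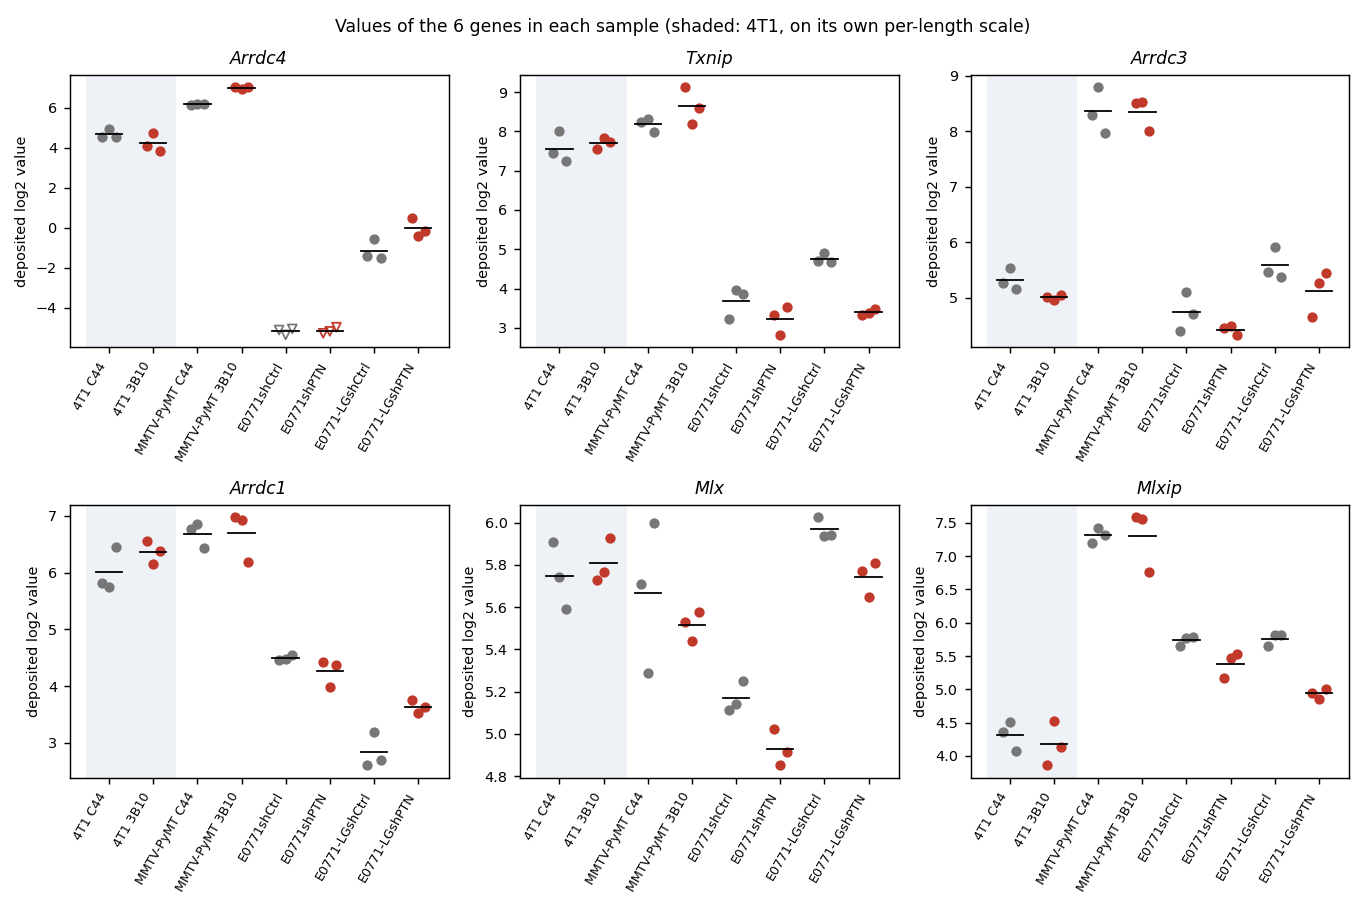
Log2 value of each of the 6 genes in each of the 24 samples (1 dot per sample, line at the group mean, grey for control and red for PTN-inhibited, open triangles for 0 reads). The shaded 4T1 values are on another scale; Arrdc4 separates the MMTV-PyMT groups (0.81) and Txnip the E0771-LG groups (-1.36).

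In 4T1 tumors given the same antibody, Arrdc4 lay on the other side of 0. It was 4.53, 4.94 and 4.51 in C44 tumors and 4.08, 4.71 and 3.85 in 3B10 tumors (-0.44, standard error 0.25, adjusted p = 0.862, 95% interval -1.02 to 0.13). 3B10 tumor 2 lay inside the C44 range. limma called 0 of the 6 genes and 0 of 11467 genes tested (0%) after adjustment; at an unadjusted p below 0.05 there were 719 (6.27%). Txnip was 7.44, 7.998 and 7.25, then 7.56, 7.83 and 7.73 (0.14, adjusted p = 0.965, interval -0.32 to 0.61), with overlapping groups. Arrdc3 was 5.26, 5.54 and 5.16 with C44 and 5.02, 4.95 and 5.06 with 3B10 (-0.31, adjusted p = 0.807); the groups do not overlap, for which the exact permutation p is 0.1, the smallest that 3 against 3 can give. Arrdc1 was 5.82, 5.75 and 6.44, then 6.55, 6.15 and 6.37 (0.35, adjusted p = 0.88). The factors stayed near 0, with Mlx at 5.91, 5.74 and 5.59, then 5.73, 5.76 and 5.93 (0.06, adjusted p = 0.978), and Mlxip at 4.37, 4.51 and 4.08, then 3.86, 4.53 and 4.14 (-0.14, adjusted p = 0.969).

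Summed marker levels lay apart between the 4T1 groups for 3 cell types, and whether they bear on any of these genes was not tested. limma called 0 markers, as it called 0 of all genes there, and at an unadjusted p below 0.05 there were 9 of 11 leukocyte, 6 of 6 skeletal muscle and 6 of 10 mammary epithelium markers tested, against 6.27% of all genes. The leukocyte markers (11 of 12 in the table) summed to 10508, 7515 and 9495 in C44 tumors and 4146, 7421 and 4820.5 in 3B10 tumors, Lyz2 being the most abundant gene and 0 markers at the lowest value. Mammary epithelium markers (12) summed to 3369, 3693 and 3693 with C44 and 5283, 4881 and 5368 with 3B10, Krt18 the most abundant, with Csn2 at the lowest value in all tumors but C44 tumor 3 and Krt5 in C44 tumor 1 and 3B10 tumor 3. Skeletal muscle markers (7 of 12) summed to 35.7, 34.7 and 64.6, then 82.5, 239 and 378, Tnni2 the most abundant in 4 of the 6 tumors, with Myh4 at the lowest value in C44 tumors 2 and 3. Endothelial and fibroblast sums overlapped, at 153 to 385 against 147 to 329 and 1301 to 2096 against 1090.3 to 4453. In MMTV-PyMT the sums for leukocytes (286 to 483 against 305 to 609.7), epithelium (4852 to 6869 against 5824 to 6350) and fibroblasts (1377 to 3881 against 1859 to 2711) overlapped, while the 3 adipocyte markers in the table of 10 named were higher with 3B10 (97.8, 35.6 and 38.4) than with C44 (27.4, 34.8 and 16.4), Lpl the most abundant in 5 of the 6 and 0 markers at 0 reads. Endothelial (121 to 197 against 130.4 to 194) and skeletal muscle sums (10.8 to 38.0 against 12.1 to 15.7) also overlapped there. In tumor RNA, fewer cells of a type and less RNA per cell cannot be told apart.

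Knockdown lowered Ptn itself in both cell lines, which sets the scale for the genes that follow. In E0771 Ptn was 2.90, 2.18 and 2.28 in control cells and -0.63, 0.25 and 0.53 with the shRNA (-2.40, standard error 0.37, adjusted p = 0.00159). In E0771-LG it was 3.65, 4.51 and 3.74, then 1.42, 0.98 and 1.38 (-2.71, standard error 0.28, adjusted p = 6.3e-05). The difference between lines was -0.30 (adjusted p = 0.651). In the antibody experiments the protein, and not the transcript, is the target. Ptn in MMTV-PyMT was 2.80, 2.73 and 3.42 with C44 and 3.28, 2.95 and 4.22 with 3B10. The difference of 0.50 ran from 0.13 to 0.77 over all alternatives and omissions of a sample. In 4T1 Ptn was too low to test (-0.76 to 0.86 over the 6 tumors).

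Txnip fell in E0771-LG upon Ptn knockdown and separated the groups completely. The gene (chr3:96557957-96561883, plus strand) was at 4.70, 4.90 and 4.69 in control cells and at 3.33, 3.38 and 3.47 with the shRNA, with 448, 583 and 479 reads against 212, 188 and 193. This is 2.57-fold lower (log2 fold change -1.36, standard error 0.14, adjusted p = 7.52e-05, 95% interval -1.68 to -1.05). In E0771 Txnip was 3.24, 3.96 and 3.86, then 3.32, 2.82 and 3.53 (-0.46, standard error 0.24, adjusted p = 0.201, interval -0.98 to 0.07), with overlap. The effect was larger in E0771-LG than in E0771 by -0.91 (standard error 0.29, adjusted p = 0.0261), a call that is lost without any of 3 single samples (adjusted p 0.0538 to 0.0745). Between the control cells Txnip was 2.11-fold higher in E0771-LG than in E0771 (1.08, adjusted p = 0.00103), and the knockdown cells of E0771-LG, at a mean of 3.40, lay within the range of the E0771 controls, 3.24 to 3.96. These comparisons share the E0771-LG control samples and are set side by side only.

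In E0771-LG 3 of the 5 genes tested were called, Txnip and Mlxip lower and Arrdc1 higher, where 4826 of all 10405 genes were called (46.4%), 2531 higher (24.3%) and 2295 lower (22.1%); without shRNA sample 2 of that line the number drops to 3206. In E0771 0 of 5 were called, against 2140 of 10394 genes (20.6%), 924 higher (8.89%) and 1216 lower (11.7%). That number drops to 1164 genes without control sample 3. Mlxip is called in E0771 without shRNA sample 2 (adjusted p = 0.0494) and with a replicate block (adjusted p = 0.0293), although replicate numbers do not pair the samples. For the difference of the knockdown effect between lines 3 of 5 were called, Txnip, Arrdc1 and Mlxip, against 3602 of 10600 genes (34.0%). Between control cells 4 of 5 were called, against 5676 of 10411 genes (54.5%): Txnip, Arrdc3 and Mlx among the 2004 higher in E0771-LG (19.2%) and Arrdc1 among the 3672 lower (35.3%). The median gene was -0.15 in that last comparison; with median-of-ratios scaling the counts are 2847 higher and 2831 lower, and by quantile normalization 2830 and 2671.

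**Figure D3:**
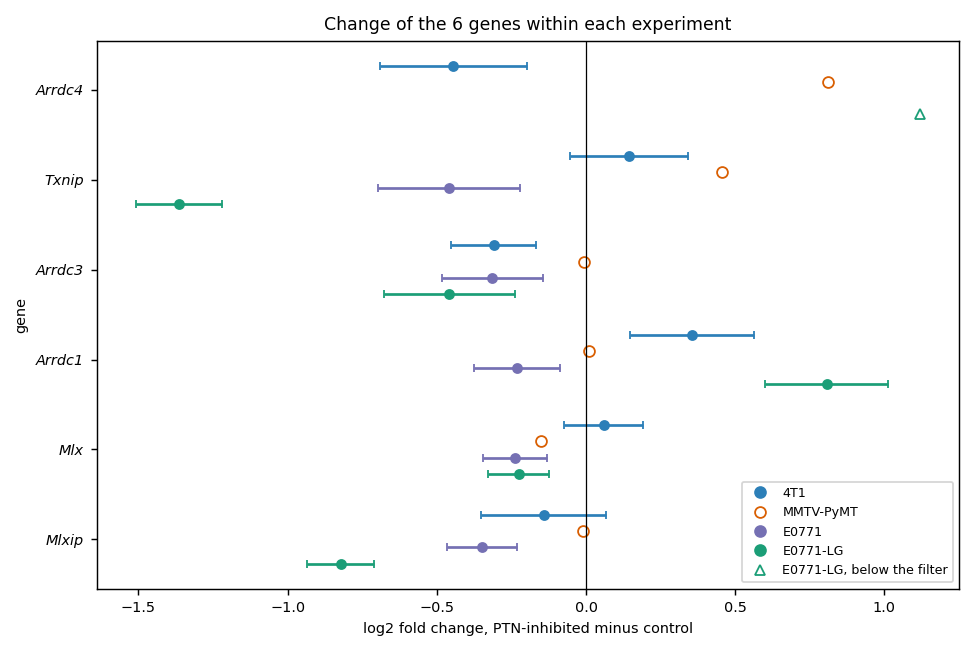
Log2 fold change of each gene within each experiment, PTN-inhibited minus control (dots, bars of 1 standard error; open circles for MMTV-PyMT without a bar, triangle for Arrdc4 in E0771-LG below the filter). Txnip and Mlxip lie at -1.36 and -0.82 in E0771-LG, and Arrdc4 at 0.81 in MMTV-PyMT and -0.44 in 4T1.

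Mlxip, which encodes MondoA, fell together with Txnip in E0771-LG. It was 5.65, 5.82 and 5.82 in control cells and 4.95, 4.85 and 5.01 with the shRNA, 1.77-fold lower (-0.82, standard error 0.11, adjusted p = 0.000278). In E0771 it was 5.65, 5.78 and 5.78, then 5.17, 5.46 and 5.52 (-0.35, adjusted p = 0.0557), without overlap, and the difference between lines was -0.47 (adjusted p = 0.0307; not called in the joint fit of all samples, adjusted p = 0.151, or in 7 omissions of a sample). The control cells of the lines had nearly the same Mlxip (0.03, adjusted p = 0.848). Its partner Mlx was 6.03, 5.94 and 5.94, then 5.77, 5.65 and 5.81 in E0771-LG (-0.23, adjusted p = 0.0903), and 5.11, 5.14 and 5.25, then 5.02, 4.85 and 4.92 in E0771 (-0.24, adjusted p = 0.147). Neither pair of Mlx groups overlaps (exact permutation p = 0.1 for each, the smallest that 3 against 3 can give), and neither passed the test. For Mlxip in E0771 the exact permutation p was also 0.1. Mlx was 1.74-fold higher in E0771-LG control cells than in those of E0771 (0.80, adjusted p = 0.000138), as Txnip was; its knockdown effect differed by 0.01 between lines (adjusted p = 0.954).

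Arrdc1 moved the other way from Txnip in E0771-LG. It was 2.61, 3.19 and 2.71 in control cells and 3.75, 3.53 and 3.64 with the shRNA, 1.75-fold higher (0.81, standard error 0.21, adjusted p = 0.00847). In E0771 it was 4.46, 4.49 and 4.55, then 4.42, 3.99 and 4.38 (-0.23, adjusted p = 0.286), without overlap (exact permutation p = 0.1). The lines differed in effect by 1.04 (adjusted p = 0.00528). Control E0771-LG cells had 3.16-fold less Arrdc1 than control E0771 cells (-1.66, adjusted p = 5.39e-05), and their knockdown cells stayed below every E0771 sample. Arrdc3 was 5.47, 5.92 and 5.37, then 4.66, 5.27 and 5.45 in E0771-LG (-0.46, adjusted p = 0.115; called with a replicate block, adjusted p = 0.0484), with 1 knockdown sample inside the control range. In E0771 Arrdc3 was 4.40, 5.11 and 4.71, then 4.45, 4.49 and 4.33 (-0.31, adjusted p = 0.22); the lines differed by -0.14 in effect (adjusted p = 0.733) and by 0.85 between control cells (adjusted p = 0.00579).

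Arrdc4, abundant in MMTV-PyMT tumors, is nearly silent in these cultured lines. All 6 E0771 samples have 0 reads, so no fold change exists there. At a floor of 3 reads per library the E0771 samples lie below 0.147 to 0.192 CPM (reads per M reads on genes), and the mean of E0771-LG control cells, 0.444 CPM, is 2.31 times the highest of those floors, which cover counting error only. E0771-LG control samples have 6, 13 and 6 reads and knockdown samples 29, 13 and 15, or 0.347, 0.664 and 0.323 against 1.37, 0.720 and 0.861 CPM. The ratio of means is 2.22 and the groups do not overlap, but the gene is below the filter and the exact permutation p is 0.1. In that line Arrdc4 thus has more reads in sum with the shRNA (57 against 25), and Txnip fewer.

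Across the 18 samples that share a scale, 5 of the 6 genes were highest in MMTV-PyMT tumors, which differ from the cultured lines in strain and model as well as in tissue. Mean Arrdc4 was 6.99 and 6.18 in 3B10 and C44 MMTV-PyMT tumors, and -0.04 and -1.16 in knockdown and control E0771-LG cells. Txnip averaged 8.64 and 8.18 in these tumors, 4.76 in control E0771-LG cells, and 3.68, 3.40 and 3.22 in E0771 control, E0771-LG knockdown and E0771 knockdown cells, the last 3 overlapping. Arrdc3 (8.36 and 8.35), Arrdc1 (6.70 and 6.69) and Mlxip (7.31 and 7.30) were also highest in MMTV-PyMT, whereas Mlx was highest in E0771-LG control cells (5.97, and 5.74 with the shRNA, against 5.67 in C44 and 5.52 in 3B10 tumors). Per kilobase of exon, Txnip had the highest level of the 6 in MMTV-PyMT tumors (6.55 with C44, 7.05 with 3B10) and Mlx in all 4 cell groups (4.97 in E0771-LG controls). Arrdc4 per kilobase was the lowest of the 6 in C44 tumors (4.17) and 4th in 3B10 tumors (4.98). Txnip per kilobase went from 2nd place (3.12) to 5th (1.75) in E0771-LG upon knockdown. In 4T1 tumors, if their values are per length, as their slope with exon length was read here, Txnip has the highest of the 6, at 7.59 with C44 and 7.71 with 3B10; the scale of these columns is not given in the sources used here.

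Genes around Txnip in glucose handling were counted beside all genes, of which 8.89% were called higher and 11.7% lower in E0771, and 24.3% and 22.1% in E0771-LG. Of the alpha-arrestin and beta-arrestin family 0 of 6 were called in E0771 (median -0.22), and 2 higher and 1 lower of 6 in E0771-LG (-0.02; Arrdc2 rose by 1.01, adjusted p = 0.0298); the medians of all genes are -0.03 and 0.05. Of the MLX and MAX network 1 rose and 2 fell of 10 in E0771 (-0.11; Mxd4 -1.06, Myc -0.51), and 1 rose and 3 fell in E0771-LG (-0.29; Mlxip, Mxd3 0.81, Mnt -0.51, Mga -0.46). Glucose uptake and phosphorylation had 1 higher and 4 lower of 13 in E0771 (-0.32), with Hk3 at 1.53 (adjusted p = 0.0402), Slc2a1 at -0.52 (adjusted p = 0.00832) and Hk2 at -0.49, and 1 higher and 2 lower of 12 in E0771-LG (-0.11), with Slc2a8 at 1.46 (adjusted p = 0.0116), Hk2 at -0.72 (adjusted p = 0.000705) and Slc2a3 at -0.41. Hk2 thus fell in both lines. Glycolysis after glucose 6-phosphate had 3 higher and 0 lower of 18 in E0771 (0.02) and 5 higher and 3 lower in E0771-LG (0.09); Ldhb rose in both lines, by 2.46 and 2.71. Txnip binds thioredoxin, encoded by Txn1, and the list of the thioredoxin system also has other genes. The calls of that list were 1 higher and 1 lower of 16 in E0771 (0.03) and 8 higher and 2 lower in E0771-LG (0.23). Rrm1 was at -1.03 in E0771, where Txn1 was not called (-0.34, adjusted p = 0.379). In E0771-LG Rrm1 was at -1.12, Prdx4 at 0.89, Txnrd2 at 0.77 and Txn1 at 0.70 (adjusted p = 0.000345).

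Other carbohydrate response genes were called in both directions in each line. Of 14 tested, 6 rose, 2 fell and 6 were not called in E0771 (median 0.31). In E0771-LG 3 rose, 6 fell and 5 were not called (-0.30). Over all genes 8.89% rose and 11.7% fell in E0771, and 24.3% and 22.1% in E0771-LG. Fasn was 0.53 in E0771 (adjusted p = 0.0316) and -1.37 in E0771-LG (adjusted p = 0.000105), and Acly fell with Acaca in E0771-LG (-1.23 and -1.30), while Khk rose there (1.96). By the test of the difference between lines 4 of the 14 were higher and 6 lower, against 1942 higher and 1660 lower of 10600 genes, with Fasn at -1.90, Acly at -1.63, Khk at 1.54 and Elovl6 at -1.46. The NEDD4 family ubiquitin ligases, which alpha-arrestins recruit, had 0 of 7 called in E0771 (-0.03) and 4 of 7 lower in E0771-LG (-0.54): Smurf2 (-1.23), Wwp1 (-0.79), Nedd4 (-0.71) and Itch (-0.54). For the difference between lines 6 of the 7 were lower, with a median of -0.47 against 0.08 over all genes, of which 1660 of 10600 were lower. Among ESCRT and microvesicle partners of Arrdc1 0 of 8 were called in E0771 (-0.12), and 2 rose and 1 fell in E0771-LG (0.04; Chmp4b 0.52, Vps4b -0.42). Cargo of alpha-arrestins had 2 higher and 2 lower of 8 in E0771 (0.15) and 0 higher and 4 lower in E0771-LG (-0.38), and Insr fell in both (-1.12 and -0.93). Itgb4, the integrin handled by Arrdc3, rose by 0.67 in E0771 and was at 0.07 in E0771-LG (adjusted p = 0.91), and the difference between lines was not called (-0.60, adjusted p = 0.376).

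Signals that act on Txnip and Arrdc4 beside glucose were described by the same counts, against 20.6% of all genes called in E0771 and 46.4% in E0771-LG. By direction, 8.89% of all genes were higher and 11.7% lower in E0771, and 24.3% and 22.1% in E0771-LG. AMPK and MTOR sensing had 2 higher and 0 lower of 15 in E0771 (median -0.01) and 4 higher and 4 lower in E0771-LG (0.12). FOXO and glucocorticoid response had 2 higher and 1 lower of 14 (0.01) and 1 higher and 7 lower of 13 (-0.38), with Nr3c1 at -0.92, Tsc22d3 at 0.76, Irs2 at -0.72 and Foxo3 at -0.70 in E0771-LG. Hypoxia response had 2 higher and 1 lower of 14 (0.11) and 1 higher and 3 lower of 13 (0.13). In tumors 0 genes of any list were called, and the hypoxia list had the lowest median of the 12 in both models: -0.29 in 4T1 and -0.48 in MMTV-PyMT, with 1 of 15 genes above 0 in each. At an unadjusted limma p below 0.05 there were 0 of the 15 in 4T1, where 719 of all 11467 genes were. In MMTV-PyMT there were 3 of the 15, where 307 of all 11361 genes were. Adm lay at -0.64 and -1.54 in the 2 models, in which the medians of all genes were 0.01 and 0.05. Glycolysis was at -0.07 and -0.21, and glucose uptake and phosphorylation at -0.25 and 0.02. The arrestin family was at -0.22 and -0.01, the MLX and MAX network at -0.10 and 0.03, the thioredoxin system at 0.14 and 0.05, and other carbohydrate response genes at -0.07 and 0.14. NEDD4 ligases were at -0.14 and -0.10, ESCRT partners at 0.08 and 0.06, AMPK and MTOR sensing at -0.08 and 0.05, FOXO and glucocorticoid response at -0.01 and -0.11, and arrestin cargo at -0.10 and 0.10.

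**Figure D4:**
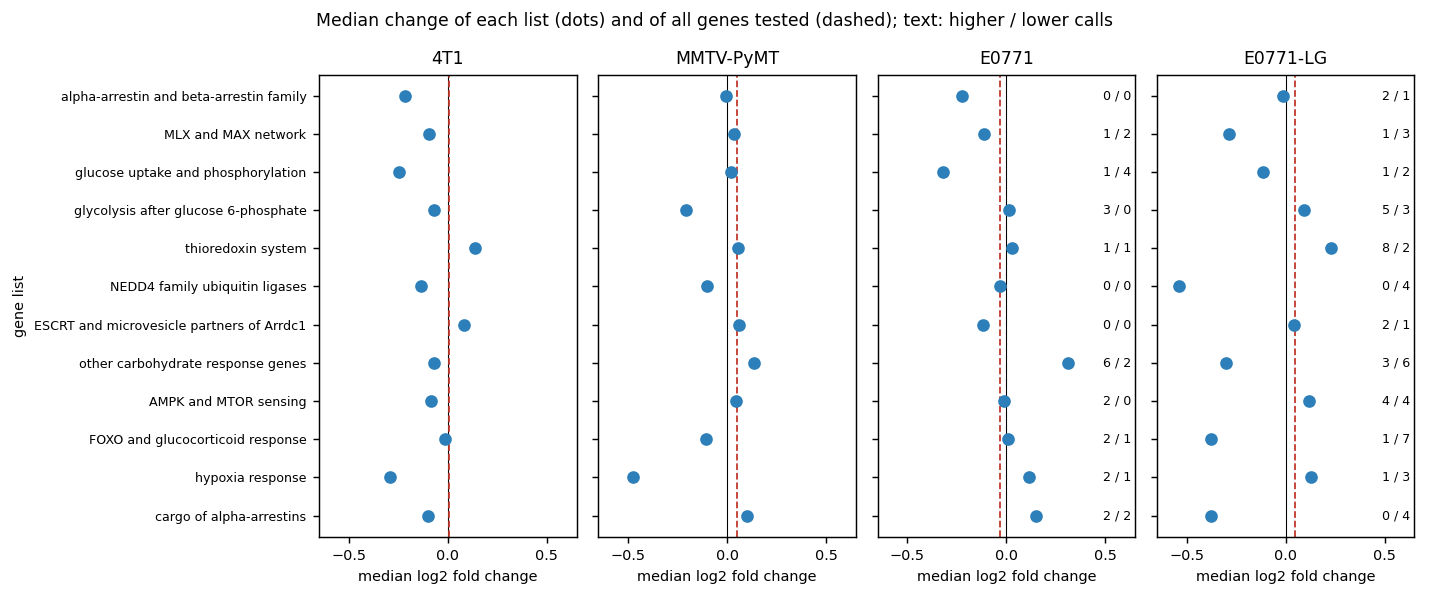
Median log2 fold change of each of 12 gene lists in each experiment (dots), beside the median of all genes tested (dashed line); text at the right gives genes called higher and lower in the cell lines. The NEDD4 ligases lie at -0.54 in E0771-LG and the hypoxia list at -0.48 in MMTV-PyMT.

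Expression of cell type markers also moved in the cultured lines with the knockdown, and whether it bears on Txnip was not tested; of all genes 8.89% were called higher and 11.7% lower in E0771, and 24.3% and 22.1% in E0771-LG. Mammary epithelium markers (12) summed to 159, 205 and 165 in E0771-LG controls and 426, 566 and 517 with the shRNA, Krt8 the most abundant and Cldn3 and Csn2 at 0 in all 6; in E0771 they overlapped (99.7 to 114 against 99.6 to 116). Fibroblast markers (9 of 10) summed to 92.0, 145 and 107 and then 58.3, 66.3 and 73.8 in E0771-LG, Pdgfra the most abundant, and to 74.8, 101 and 86.5 and then 331, 293 and 330.4 in E0771, Pdgfra and then Col3a1 the most abundant, with Fbln1 at 0 in all 12 samples; 1 rose and 2 fell of 6 tested in E0771-LG and 5 of 5 rose in E0771. Leukocyte markers (11 of 12) went from 91.5, 87.0 and 91.1 to 53.0, 58.7 and 61.7 in E0771-LG, most of it Laptm5, the 1 leukocyte marker that fell there (-0.94), while Cd68 (2.17) and Lyz2 (1.27) rose; they went from 18.1, 28.9 and 22.8 to 57.4, 44.6 and 51.3 in E0771, where 2 of 3 tested rose, with Tyrobp at 0 in all 12. Endothelial markers (8) summed to 11.3, 16.7 and 11.3 and then 27.6, 34.3 and 28.9 in E0771-LG, and skeletal muscle markers (7 of 12) to 7.94, 11.7 and 11.8 and then 26.1, 21.3 and 25.4 in E0771, with Egfl7 and mostly Actn3 the most abundant. Adipocyte markers (3 of 10), nearly all Fabp4, summed to 11.04, 18.3 and 12.1 and then 1.18, 4.32 and 3.04 in E0771-LG.

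The spread of Arrdc4 and Txnip between replicates was compared after subtracting each group's mean. Their correlation was 0.712 in MMTV-PyMT, 0.617 in 4T1 and 0.443 in E0771-LG (6 samples each), and 0.591 over these 18 samples, 4T1 with its own scale among them. Without the 2 farthest samples it was 0.615, -0.74 and 0.704, and 0.507 over the 18, so that the value in 4T1 rests on 2 tumors; both genes of a sample come from the same library, and these are descriptions. Over 24 samples Txnip and Arrdc3 had 0.630. The genes most like Txnip over 24 samples were Icam1 (0.886), Plat (0.855), C1s1 (0.843), Tgif1 (0.835) and Ifngr2 (0.834), where 95% of the 9788 genes compared lay below 0.550. For Arrdc4, without E0771, which has 0 reads of it, they were Angpt1 (0.876, 18 samples), Agap2 (0.845) and Gabarapl1 (0.821), where 95% of 9789 genes lay below 0.497.

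**Figure D5:**
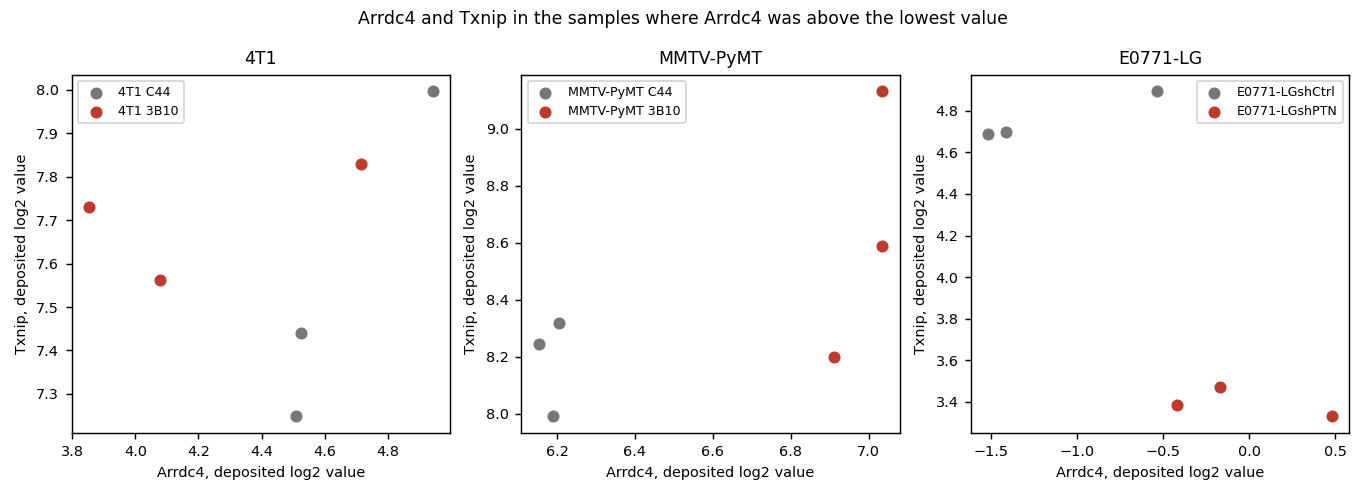
Txnip against Arrdc4, log2 values, 1 point per sample, in 4T1, MMTV-PyMT and E0771-LG. Arrdc4 splits the MMTV-PyMT groups along its axis (0.81) and Txnip splits the E0771-LG groups along its own (-1.36).

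These are RNA levels in 3 samples per group, and the uptake of glucose, the proteins and their binding to DNA were not analysed here. The glucose content of the culture medium and the blood glucose of the mice are not given in the sources used here. Each knockdown rests on 1 shRNA construct, so effects of the construct cannot be separated from those of Ptn. Tumor values mix cancer cells with stroma. The 4T1 values are on another scale than the rest, so levels were compared within 4T1 only. Arrdc4 was chosen by its MMTV-PyMT values, and its difference there may be larger, and its spread smaller, than in new tumors.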

How the data were processed

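RNA sequencing of 24 samples (4 experiments, 8 groups of 3) was read from the deposited table of 12091 genes, whose values are log2 CPM as deposited for 18 samples and log2 values that appear to be per length for the 6 tumors of 4T1. For MMTV-PyMT, E0771 and E0771-LG, 100% of values return whole reads within 0.05 reads after an offset of 0.5, which gives 16.3 to 19.3, 15.6 to 20.4 and 17.3 to 21.1 M reads on genes per sample. C44 tumors of MMTV-PyMT had 18.8 to 19.3 and 3B10 tumors 16.3 to 18.4; the knockdown and control libraries overlapped (E0771 15.6 to 19.3 against 16.6 to 20.4, E0771-LG 17.4 to 21.1 against 17.3 to 19.6). Of the 4T1 values 10.9 to 11.3% return whole reads, they sum to 0.929 to 0.947 M off the log scale, and their depth cannot be read from the table; over 9789 genes their difference from MMTV-PyMT slopes with log2 exon length by -0.81, against 0.03 for E0771 and -0.12 for E0771-LG.

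Each experiment was fitted alone with limma 3.58.1 in R 4.3.3 (lmFit, then eBayes with trend and robust) on the deposited log2 values, and p was adjusted by Benjamini-Hochberg over all genes with a value of at least 1 off the log scale in at least 3 samples; a gene is called at an adjusted p below 0.05. E0771 and E0771-LG were also fitted together for the difference of the knockdown effects and for the control cells of the lines; these share samples with the comparisons within lines. Every p printed is from limma unless called exact. Start windows were read from RefSeq, gene coordinates and exon lengths from GENCODE M21.

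The 6 genes and the lists were chosen with earlier results of these data known. The lists were the alpha-arrestin and beta-arrestin family, MLX and MAX network, glucose uptake and phosphorylation, glycolysis after glucose 6-phosphate, thioredoxin system, NEDD4 family ubiquitin ligases, ESCRT and microvesicle partners of Arrdc1, other carbohydrate response genes, AMPK and MTOR sensing, FOXO and glucocorticoid response, hypoxia response and cargo of alpha-arrestins. The marker lists were mammary epithelium, leukocyte, endothelial, fibroblast, adipocyte and skeletal muscle. Genes named from a list are among its 4 called genes with the largest change in either direction, and in tumors among the largest changes. The CACGNG repeat, CCAAT and the likeness without E0771 were chosen after the data had been seen. Alternatives were 11 changes of filter, offset, scaling, moderation, weights, joint fit and replicate block, and leaving out each sample in turn. Arrdc5, Mlxipl, Slc2a4 and Pklr were not analysed here.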

Additional observations from a re-analysis of the deposited data

Results flagged for a closer look

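The effect of Ptn knockdown differed between the lines for 3 of the 5 genes tested by the interaction test of limma, where 3602 of 10600 genes were called (34.0%). E0771-LG minus E0771 was -0.91 for Txnip (adjusted p = 0.0261), 1.04 for Arrdc1 (adjusted p = 0.00528) and -0.47 for Mlxip (adjusted p = 0.0307). Txnip loses its call without any of 3 single samples, and Mlxip in the joint fit of all samples (adjusted p = 0.151) and in 7 omissions of a sample.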

How the results depend on the processing

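In E0771-LG the fall of Txnip (-1.48 to -1.29 over all alternatives and omissions of a sample), the fall of Mlxip (-0.88 to -0.78) and the rise of Arrdc1 (0.60 to 0.98) kept their calls under every alternative; Ptn ran from -2.98 to -2.30 there and from -2.64 to -1.67 in E0771. The number of genes called in E0771 dropped from 2140 to 1069 in 1 fit of all samples and to 1164 to 2139 when samples were left out (1268 without shCtrl 2, 1164 without shCtrl 3, 1220.0 without shPTN 3), and in E0771-LG it ran from 3206 (without shPTN 2) to 5113. With the replicate block, Mlxip was called in E0771 (-0.35, adjusted p = 0.0293), making 1 member where 0 were called, as it was without shPTN 2 (-0.39, adjusted p = 0.0494), and Arrdc3 was called in E0771-LG (-0.46, adjusted p = 0.0484); replicate numbers do not pair the samples, with correlations of residuals per pair from -0.327 to 0.436 in 4T1, -0.036 to 0.208 in MMTV-PyMT, -0.037 to 0.141 in E0771 and -0.117 to 0.237 in E0771-LG. Between lines, Txnip lost its call without E0771shCtrl 1 (-0.68, adjusted p = 0.0646), E0771shPTN 3 (-0.75, adjusted p = 0.0745) or E0771-LGshPTN 2 (-0.90, adjusted p = 0.0538), which left 1 gene called, Arrdc1 (Txnip ran from -1.11 to -0.68); Mlxip lost it in 1 fit of all samples (-0.47, adjusted p = 0.151) and in 7 omissions (adjusted p 0.0525 to 0.087). Signs turned for values near 0: Txnip in 4T1 (-0.012 without C44 3; range -0.012 to 0.36), Mlx in 4T1 (-0.019 without C44 3, -0.0015 without 3B10 3; up to 0.14), Mlxip in 4T1 (0.014 without 3B10 1, down to -0.32), Arrdc3 between lines (down to -0.33; 0.02, 0.02 and 0.089 without E0771shCtrl 1, E0771-LGshCtrl 2 and E0771-LGshPTN 1), Mlx between lines (up to 0.059; -0.038 by median-of-ratios scaling, -0.0049 by quantile normalization, and -0.0294, -0.0274, -0.0036, -0.0011, -0.0013 and -0.0216 in 6 omissions) and Mlxip between control cells (-0.0173, -0.0012 and -0.0026 in 3 omissions; up to 0.082 in another omission and 0.18 by quantile normalization). Arrdc4 in 4T1 ran from -0.69 to -0.26. In E0771 Txnip ran from -0.68 to -0.26, Arrdc3 from -0.48 to -0.13 and Arrdc1 from -0.31 to -0.09. Arrdc3 in E0771-LG ran from -0.62 to -0.22. Without the filter Arrdc4 in E0771-LG had an adjusted p of 0.0943. Scaling moved the median of the control cells of the lines from -0.15 to 0.00, and the share of called genes that are higher from 35.3% to 50.1% or 51.4%. Weights from voom and the joint fit were not run for 4T1. The cause of these differences was not tested.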
